A study of Mus musculus with 4 samples.

Results

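Cldn18 and 7 genes of the gastric mucous lineages, Tff1, Tff2, Gkn1, Gkn2, Gkn3, Muc5ac and Muc6, were followed in spatial transcriptomes of caerulein-treated mouse pancreas. These 8 genes were picked by symbol from the 32285 features used, of which 20387 had at least 1 count over tissue, and all 8 had counts in every section. Cldn18 was picked because its counts were high in both sections labelled EHMT2 knockout, so its level by genotype is given below as a description, without a test. The question was whether the other gastric genes came with it, and in the same places. C57Bl/6 mice carrying Pdx1-Cre, 2 of genotype Ehmt2+/+ and 2 of genotype Ehmt2 fl/fl, gave 1 formalin-fixed, paraffin-embedded section each. In the study's design Pdx1-Cre deletes Ehmt2, the gene of a histone H3 lysine methyltransferase, in the epithelium of the pancreas, so stroma, vessels and immune cells keep it. All 4 mice were 4 weeks old by the study's methods, were fasted for 12 h, and received caerulein, a cholecystokinin analogue that causes acute pancreatitis, at 50 μg/kg in 8 hourly injections, with collection 18 h after the first. In this assay gene-specific probe pairs are captured on an array of barcoded spots, each spot covers several cells, and each captured molecule is counted once as a UMI.

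Claudins are membrane proteins of tight junctions, and Cldn18 has alternative first exons, an upstream start used in lung and a downstream start used in stomach. Tff1, Gkn1, Gkn2 and Muc5ac are made by the surface (pit) cells that coat the stomach with mucus, whereas Tff2 and Muc6 belong to neck and gland mucous cells. A normal exocrine pancreas consists mainly of acinar cells, which make digestive enzymes, and gastric-type mucous genes are known there from metaplastic and premalignant ducts.

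The Cldn18 gene lies on the minus strand at chr9:99690796-99717267 (GRCm38.p6), and its starts lie 7.20 kb apart. Both of its promoters in RefSeq are printed below, 250 bases before to 50 after each start, since gene-level counts cannot say which start gave the Cldn18 molecules. Each is written 5′ to 3′ on the strand of the gene, and capitals mark AGATAA, a core searched as a GATA-type motif, or its reverse complement.
Cldn18 upstream promoter, chr9:99717218-99717517, minus strand: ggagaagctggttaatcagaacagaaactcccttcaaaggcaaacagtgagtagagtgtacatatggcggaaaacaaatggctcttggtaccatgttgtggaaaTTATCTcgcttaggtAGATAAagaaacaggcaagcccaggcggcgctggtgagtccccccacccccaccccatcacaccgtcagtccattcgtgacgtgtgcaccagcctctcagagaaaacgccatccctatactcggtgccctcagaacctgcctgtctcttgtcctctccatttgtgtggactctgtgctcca
Cldn18 downstream promoter, chr9:99710014-99710313, minus strand: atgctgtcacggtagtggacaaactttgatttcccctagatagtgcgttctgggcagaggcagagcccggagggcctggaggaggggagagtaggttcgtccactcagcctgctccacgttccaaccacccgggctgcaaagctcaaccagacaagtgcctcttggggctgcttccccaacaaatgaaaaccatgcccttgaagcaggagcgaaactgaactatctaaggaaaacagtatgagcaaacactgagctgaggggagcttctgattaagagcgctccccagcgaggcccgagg

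The upstream promoter held AGATAA at bases 105-110 on the opposite strand and at bases 120-125 on the gene's strand, 146 and 131 bases before the start. The downstream promoter held none of the 3 motifs searched on both strands (AGATAA, then TATAAA as the TATA box, then TGANTCA as the core bound by AP-1), which says only that these letters are not in its 300 bases. The CpG counts of the upstream and downstream windows were 9 and 10, with GC contents of 52% and 55.7%. Of the other members, Gkn1, Gkn2, Gkn3 and Muc6 had a promoter in the table, and each held AGATAA once. TATAAA was found in that of Gkn2 alone, 29 bases before the start, and TGANTCA in that of Gkn1 alone. AGATAA was in 11.2%, TATAAA in 13.6% and TGANTCA in 7.81% of all 32851 promoters of this length. Tff1 (chr17:31161395-31165060) and Tff2 (chr17:31141062-31144282) are neighbours 17.1 kb apart, Gkn1, Gkn2 and Gkn3 share a stretch of chromosome 6, and Muc6 and Muc5ac lie near each other on chromosome 7.

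The libraries differed before any gene was compared. The sections labelled Ehmt2+/+ replicates 1 and 2 and Ehmt2 fl/fl replicates 1 and 2, the order of all values below, held 43803829, 8697030, 7000825 and 8501140 UMIs over 6183, 10285, 7587 and 8443 tissue spots, so Ehmt2+/+ replicate 1 was far deeper than the rest. Digestive enzyme genes took 65.5%, 53.2%, 22.4% and 21.5% of these UMIs. Their list also holds acinar secretory genes that are not enzymes, namely Spink1, Clps, Sycn, Zg16 and Gp2. The 11 acinar markers measured summed to 405755 to 499596 UMIs per 1000000 (CPM) in Ehmt2+/+ and 159599 to 168244 in Ehmt2 fl/fl. None of them was at 0. The part of these differences in the results below was not tested. In whole sections, fewer cells of a type and less RNA per cell cannot be told apart. Ehmt2 itself was at 19.7, 3.79, 10.4 and 11.9 CPM, so the genotypes overlapped and its counts give no check of the labels. Each slide carried 1 section of each genotype, but capture area A1 held both Ehmt2 fl/fl sections and B1 both Ehmt2+/+ sections, and the summed Y-linked genes were at 0.0457 to 0.115 CPM in Ehmt2+/+ and 39.6 to 50.8 in Ehmt2 fl/fl. Xist, the marker of female cells, was at 0 CPM in every section, so sex is read from the Y-linked genes alone. Area, sex read in this way and genotype therefore cannot be told apart here.

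Cldn18 was high in both sections labelled Ehmt2 fl/fl and low in both labelled Ehmt2+/+. It had 44, 47, 1111 and 1163 UMIs, or 1.0, 5.40, 159 and 137 CPM, which gave 3.20 ± 3.11 CPM in Ehmt2+/+ and 148 ± 15.5 in Ehmt2 fl/fl (SD, n = 2 each), a 46.1-fold ratio of means. The Ehmt2 fl/fl section was 158-fold higher on slide 1 and 25.3-fold higher on slide 2, and the spread in that ratio came from the Ehmt2+/+ sections. Spots with a Cldn18 UMI were 0.695%, 0.457%, 12.9% and 12.0% of tissue spots, with 95% Clopper-Pearson intervals of 12.2 to 13.7% and 11.3 to 12.7% in the Ehmt2 fl/fl sections, which cover counting error only. With every spot thinned to 500 UMIs, which kept 6144, 7871, 6483 and 6462 spots, these shares were 0.0668%, 0.307%, 7.49% and 6.22%. The genotypes did not overlap on any of these scales, but Cldn18 was picked for this difference, so the separation is no result. In CPM, 91.1% of the 20066 genes tested were also higher in both Ehmt2 fl/fl sections than in both Ehmt2+/+ sections.

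**Figure D1:**
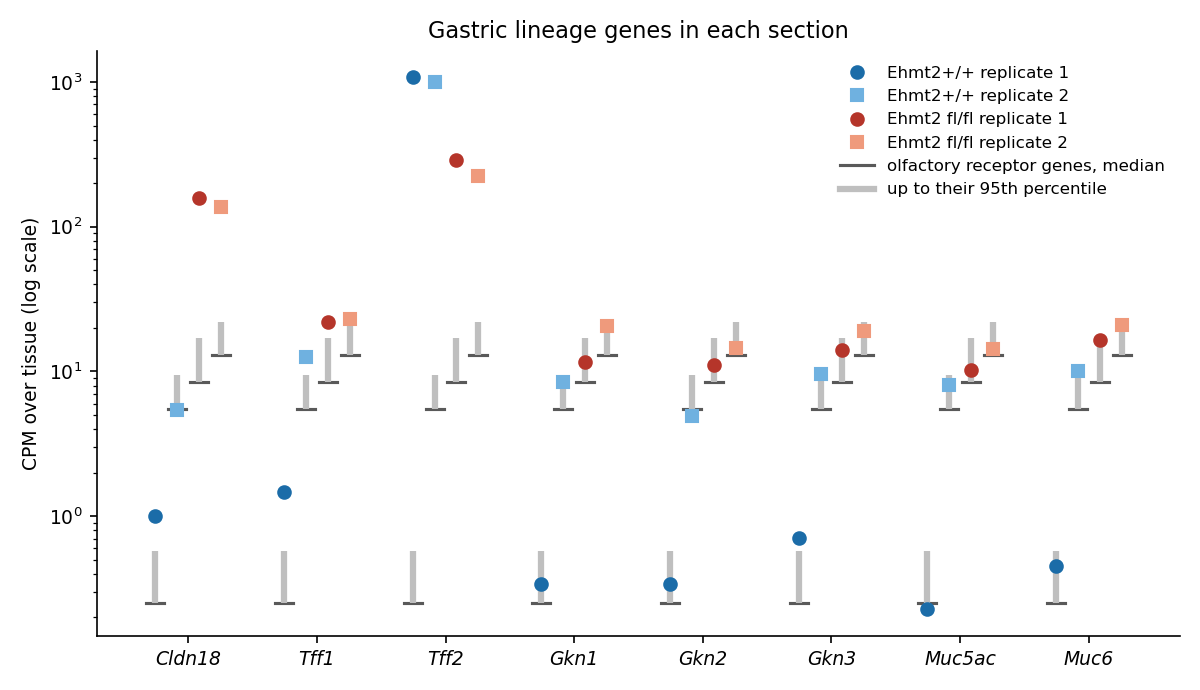
CPM over tissue (log axis) of the 8 genes in the 4 sections, each point 1 section, with the level of olfactory receptor genes drawn for comparison. Cldn18 was at 159 and 137 CPM in the Ehmt2 fl/fl sections against 1.0 and 5.40 in Ehmt2+/+, Tff2 lay far above the olfactory receptor median in all 4, and the other 6 genes lay between 0.896 and 5.82 times that median.

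A level to read these counts against came from 1107 olfactory receptor genes with a UMI, which have no known use in the pancreas, although each probe has its own efficiency and the comparison is therefore loose. Their median was 0.251, 5.52, 8.43 and 12.9 CPM. It moved with the sections in the same order as the rare members. Cldn18 stood 4.0, 0.979, 18.8 and 10.6 times as high as this median, and no olfactory receptor gene reached it in either Ehmt2 fl/fl section, while 0.0903% of them (1 gene) did in Ehmt2+/+ replicate 1 and 52.7% in Ehmt2+/+ replicate 2.

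Tff2, a secreted trefoil peptide of neck mucous cells that protects and repairs epithelium, was the only member abundant in the pancreas of both genotypes. It ran the other way from Cldn18. It had 47162, 8731, 2024 and 1898 UMIs, or 1077, 1004, 289 and 223 CPM. Means were 1040 ± 51.4 CPM in Ehmt2+/+ and 256 ± 46.6 in Ehmt2 fl/fl (SD, n = 2 each), a level 4.06-fold lower in Ehmt2 fl/fl, with no overlap. Within slides it was 3.72-fold and 4.50-fold lower. The two-sided exact permutation p was 0.333, the smallest that 2 sections against 2 allow. The shares of tissue spots with a Tff2 UMI were 92.4%, 51.0%, 21.6% and 18.0%, and 40.8%, 38.7%, 12.9% and 9.81% after thinning to 500 UMIs. Tff2 therefore also separated the genotypes at equal depth.

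Enzyme genes took a smaller part of the UMIs in Ehmt2 fl/fl, so Tff2 was also set against the enzyme genes. Per 1000000 enzyme UMIs it was at 1645, 1889, 1291 and 1037, and per 1000000 of all other UMIs at 3116, 2143, 373 and 285. Both scales kept the Ehmt2 fl/fl sections below both Ehmt2+/+ sections, but by much less against the enzymes. Of the 32 enzyme genes tested, 22 had lower CPM in both Ehmt2 fl/fl sections than in both Ehmt2+/+ sections, as did 10 of the acinar markers. Tff2 was 1 of only 154 such genes among the 20066 tested (0.767%).

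In edgeR's quasi-likelihood fit, which scales the sections by TMM, the log2 fold change of Tff2 was -4.12 ± 1.59 (SE) with an adjusted p of 0.752 over all genes, and it was not called. Its unadjusted p was 0.00936. The call depended on how the sections were scaled and on which were kept. Tff2 was called lower in DESeq2 (adjusted p = 6.27e-05) and in edgeR with library sizes alone (0.0484). In edgeR it was not called with upper-quartile factors (adjusted p = 0.207), without enzyme genes (0.873) or with no count filter (0.770). Nor was it called with all spots holding any UMI (0.760), with spots of 500 UMIs or more (0.590) or with the slide as a block (0.846). Its log2 fold change was -2.84 and -4.94 without Ehmt2+/+ replicates 1 and 2, and -4.51 and -3.82 without Ehmt2 fl/fl replicates 1 and 2. Tff2 was called lower when either Ehmt2+/+ section was left out, and not when either Ehmt2 fl/fl section was. These fits leave 1 section in a genotype, so no p is given for them. The shares of genes called lower were 6.84% in DESeq2, 0.0349% with library sizes alone 0.751% without Ehmt2+/+ replicate 1 and 36.3% without Ehmt2+/+ replicate 2. The direction was lower in Ehmt2 fl/fl in each of these settings.

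The surface-cell and gland genes were rare in all sections, and their higher CPM in Ehmt2 fl/fl was shared by nearly all genes. Tff1, a trefoil peptide of pit cells, was the highest of them over background, with 64, 110, 153 and 196 UMIs, or 1.46, 12.6, 21.9 and 23.1 CPM. That was 5.82, 2.29, 2.59 and 1.78 times the olfactory receptor median, so it stood clearest of background in a section labelled Ehmt2+/+. Tff1 was also the rare gene most often found off the tissue, in 3, 19, 26 and 6 spots, against at most 5 for any other rare gene. Its level above that median therefore does not place it in the tissue. Muc5ac, the main secreted mucin of the stomach surface, was at 0.228, 8.05, 10.3 and 14.2 CPM, or 0.909, 1.46, 1.22 and 1.10 times that median. Muc6, the mucin of the glands, was at 0.457, 10.0, 16.4 and 21.1 CPM, or 1.82, 1.81, 1.95 and 1.63 times that median. Set against that median, both mucins overlapped between the genotypes.

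The gastrokines are small secreted proteins of the stomach lining, and their levels lay in the same range. Gkn1 was at 0.342, 8.39, 11.7 and 20.6 CPM, Gkn2 at 0.342, 4.94, 11 and 14.5, and Gkn3 at 0.708, 9.66, 14.0 and 19.1. Between 12.4% and 60.7% of olfactory receptor genes were at or above Gkn1 and Gkn2 in the first 3 sections, and 7.95% and 38.0% in Ehmt2 fl/fl replicate 2. At or above Gkn3 were 1.81%, 4.52%, 13.5% and 12.7% of them. Each of these genes was thus inside the range of genes with no known use in the tissue.

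All 6 rare genes had higher CPM in both Ehmt2 fl/fl sections than in both Ehmt2+/+ sections, but so did 91.1% of the genes tested, and the same 91.1% background applies to any count of this kind here. Their log2 fold changes in the TMM-scaled fit were 0.42 ± 0.75 for Tff1, 0.80 ± 1.03 for Gkn1, 1.12 ± 1.21 for Gkn2, 0.51 ± 0.96 for Gkn3, 0.54 ± 1.14 for Muc5ac and 0.76 ± 0.92 for Muc6 (SE), against a median of 0.25 over all genes and 0.80 over the olfactory receptor genes. None was called, with adjusted p from 0.872 to 0.873, and a missing call does not show that the levels were alike. Of the 7 members other than Cldn18, 0 were called and 1, Tff2, had an unadjusted p under 0.05, against 19 of 20066 genes called (0.0947%, 0.0548% higher and 0.0399% lower) and 5.01% at that unadjusted p. Cldn18 had a log2 fold change of 4.14 ± 1.01 in the same fit, given without a p. Scaling moved the median of all genes from -0.05 (DESeq2) to 1.64 (library sizes alone). Relative to that median the values with library sizes alone were 3.98 for Cldn18, -3.66 for Tff2 and -0.06 to 0.65 for the 6 rare genes, so of these Muc5ac changed side.

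The 6 rare genes depended on Ehmt2+/+ replicate 1. Without it the log2 fold changes of Tff1, Gkn3 and Muc5ac were -0.07, -0.13 and -0.30. Without Ehmt2+/+ replicate 2, which leaves the deepest section as the only control, those of Tff1, Gkn1, Gkn2, Gkn3, Muc5ac and Muc6 were 1.05, 2.65, 2.31, 1.65, 2.84 and 2.46 and all 6 were called, but so were 46.7% of all genes tested in that fit. In that fit the lone control section is assumed to vary like the pair in the other group. Cldn18 gave 3.85 to 4.38 over the 4 fits that each leave out 1 section. It was picked for being high in both Ehmt2 fl/fl sections, so this narrow range is no result.

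**Figure D2:**
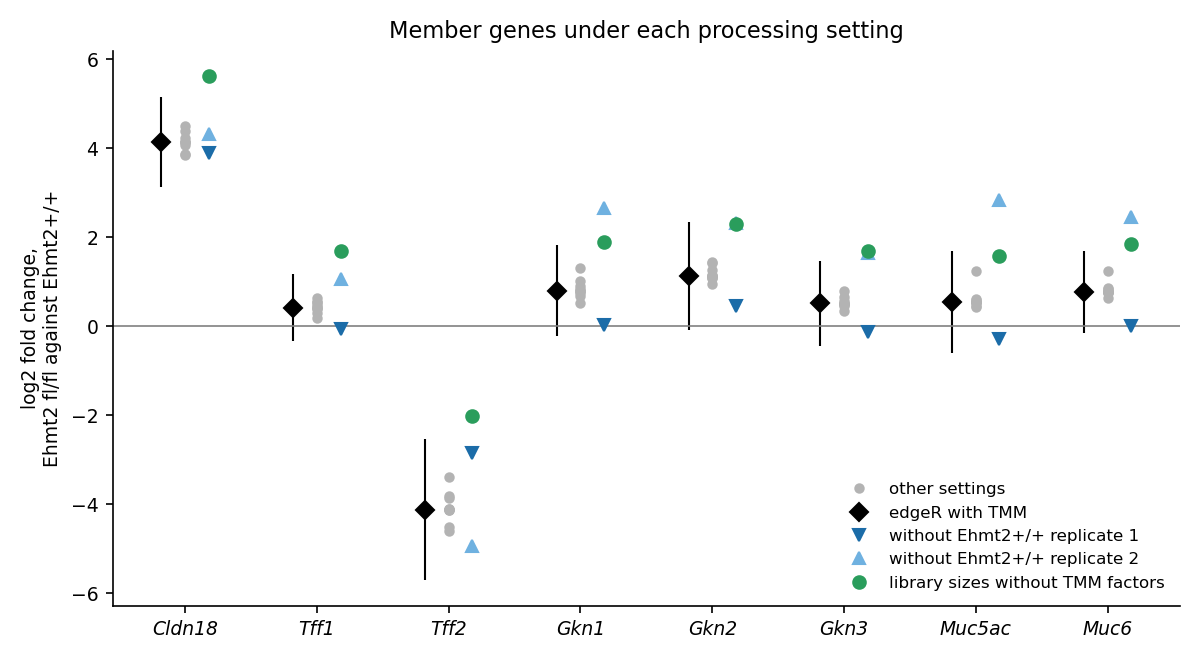
Log2 fold change (Ehmt2 fl/fl over Ehmt2+/+) of the 8 genes in the TMM-scaled fit and in each alternative. The median over all genes, which is not subtracted here, went from -0.05 to 1.64 between fits. Cldn18 lay at 3.85 to 5.62, Tff2 at -4.94 to -2.02 and Gkn2 at 0.46 to 2.31. Without Ehmt2+/+ replicate 1, Tff1, Gkn3 and Muc5ac fell below 0, and Gkn1 and Muc6 fell to 0.035 and 0.0041.

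No gene of the stomach lists was called, but only 19 of 20066 genes tested (0.0947%) were called in this fit. A count of 0 in a list this short is therefore no result about its genes. The same background applies to every count of calls in the lists and neighbourhoods below. Of the 9 tested genes listed for pit and surface cells beside the members, all had higher CPM in both Ehmt2 fl/fl sections, 0 were called in either direction, and the median log2 fold change was 0.65. Of the highest mean CPM among them, Anxa10, an annexin of gastric surface cells, was at 6.41, 12.0, 24.6 and 31.9 CPM with a log2 fold change of -0.23, and the aspartic protease Ctse was at 0.890, 11.5, 23.0 and 25.1 CPM with 0.80. The direction of Anxa10 thus differed between CPM and the TMM scale. Of 11 neck, gland and chief cell genes 0 were called (median 0.58), and only Dmbt1, a secreted scavenger receptor protein also made by the pancreas, was lower in both Ehmt2 fl/fl sections, at 2886, 556, 311 and 200 CPM (log2 fold change -5.28, adjusted p = 0.616 in edgeR). The chief cell genes Pgc and Cblif were at most at 11.2 and 18.6 CPM in any section.

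The lists of stomach parietal, endocrine and transcription factor genes gave no call in 10, 6 and 16 genes, with median log2 fold changes of 0.39, 0.38 and -0.23. The defining parietal markers Atp4a, Atp4b and Kcne2 of the stomach wall summed to 2.24, 29.7, 52.0 and 55.9 CPM and the chief markers to 1.64, 20.6, 38.6 and 48.1 CPM. All 6 of these markers had a UMI in every section and lay below the highest olfactory receptor gene there, but they were not all typical of those genes. The 95th percentile of the olfactory receptor genes was 0.571, 9.51, 17.1 and 21.9 CPM. The proton pump subunit Atp4a, at 1.03, 10.9, 17.7 and 19.4 CPM, was above it except in Ehmt2 fl/fl replicate 2. Kcne2, at 0.936, 14.8, 26.6 and 26.6 CPM, was above it in every section. Gata4, a transcription factor of both stomach and acinar cells, was at 31.0, 28.9, 25 and 26.9 CPM, lower in both Ehmt2 fl/fl sections (log2 fold change -2.33, adjusted p = 0.764 in edgeR).

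Lung and intestine lists were read in the same way, because the upstream start of Cldn18 is used in lung and Muc2 and Tff3 are intestinal counterparts of the members. Of 10 lung genes tested 0 were called, with a median of 0.75. Sftpd, a collectin of alveolar type 2 cells that is also made in other epithelia, was at 0.457, 6.32, 29.4 and 30.1 CPM, a log2 fold change of 2.0 ± 0.80 (SE, adjusted p = 0.769 in edgeR). Of 18 intestinal genes 0 were called (median 0.84). Muc2, the intestinal mucin beside Muc6 and Muc5ac on chromosome 7, was at 1.35, 27.4, 44.4 and 63.2 CPM (0.81, adjusted p = 0.872), and Tff3, named for being the remaining trefoil gene, at 0.0457, 0.805, 0.143 and 0 CPM, too few to test. The mucins other than the members had 9 genes tested and 0 called, with a median of 0.81.

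Among 20 other claudins 0 were called, with a median of 0.54, and 19 had higher CPM in both Ehmt2 fl/fl sections. Cldn3, Cldn4 and Cldn7, the common claudins of ducts and other simple epithelia, were at 341 to 637, 60.7 to 61.9 and 142 to 153 CPM in Ehmt2+/+ and at 764 to 1058, 111 to 205 and 193 to 214 in Ehmt2 fl/fl. On the TMM scale their log2 fold changes were -0.91, -0.67 and -1.59, so their direction depended on the scale. Cldn10 overlapped between genotypes in CPM (32.9, 14.9, 14.4 and 21.8) with a log2 fold change of -2.80 (adjusted p = 0.421 in edgeR). Cldn18 was picked for its high counts in Ehmt2 fl/fl, so the size of its rise cannot be weighed against that of these claudins. The difference was not tested.

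The neighbourhood of Cldn18 gave no call either. Of the genes annotated within 250 kb, 6 were tested (Nme9, Armc8, Dbr1, A4gnt, Dzip1l and Sox14), 0 were called and their median was 0.55. A4gnt, which adds the terminal N-acetylglucosamine of gland mucin, lies 68.4 kb away and was at 0.274, 3.68, 5.71 and 12.2 CPM. Dzip1l, a cilium gene 20.7 kb away, was at 2.12, 10.6, 38.1 and 35.2 CPM, a log2 fold change of 1.11 ± 0.68 (SE, adjusted p = 0.872 in edgeR). Of 31 tested neighbours of the other members 0 were called, with a median of 0.01.

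Within the Ehmt2 fl/fl sections, Cldn18 lay in many spots with few UMIs each, and was somewhat more gathered than spot depth alone would give. The 982 and 1011 positive spots of replicates 1 and 2 held at most 4 Cldn18 UMIs each. Spots with at least 2 Cldn18 UMIs numbered 116 and 127, against 84.6 and 97.3 if its UMIs fell on spots in proportion to their depth. Positive spots were also deeper, with medians of 1076.5 and 1383 UMIs against 887 and 865.5 in negative spots, so the ratios between positive and negative spots below were matched on depth in 10 bins. Spots share a section and are not replicates, and each ratio is given per section without a test.

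Of the 7 other members, Tff2 alone was found more often with Cldn18 in both Ehmt2 fl/fl sections. Its share of UMIs in Cldn18-positive spots was 1.19 and 1.24 times that in negative spots of like depth. Spots with both genes numbered 298 and 323, or 30.3% and 31.9% of Cldn18-positive spots (95% Clopper-Pearson intervals 27.5 to 33.3% and 29.1 to 34.9%), against 25.7% and 25.3% in the matched negative spots. The digestive enzyme genes had nearly the same ratios, 1.14 and 1.22. In spots with at least 2 Cldn18 UMIs the ratio of Tff2 was 0.951 and 1.26, so the sections no longer had the same direction. In the 43 and 47 Cldn18-positive spots of the Ehmt2+/+ sections it was 1.03 and 0.865.

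The 6 rare genes together showed no such excess, with ratios of 0.966 and 0.783. At least 1 of them was present in 8.45% and 12.2% of Cldn18-positive spots, against 8.46% and 14.4% of matched negative spots. Singly, their ratios were 0.990 and 0.704 for Tff1, 1.08 and 0.772 for Gkn1, 0.927 and 0.805 for Gkn2, 1.35 and 0.863 for Gkn3, 0.811 and 1.01 for Muc5ac and 0.633 and 0.667 for Muc6, each resting on 8 to 27 shared spots. Gkn1, Gkn3 and Muc5ac changed side between the sections. The olfactory receptor genes gave 0.917 and 0.869. In the 4 sections spots holding 2 of the 6 rare genes numbered 0, 17, 24 and 55, against 2.14, 10.8, 20.9 and 54.1 by depth alone.

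**Figure D3:**
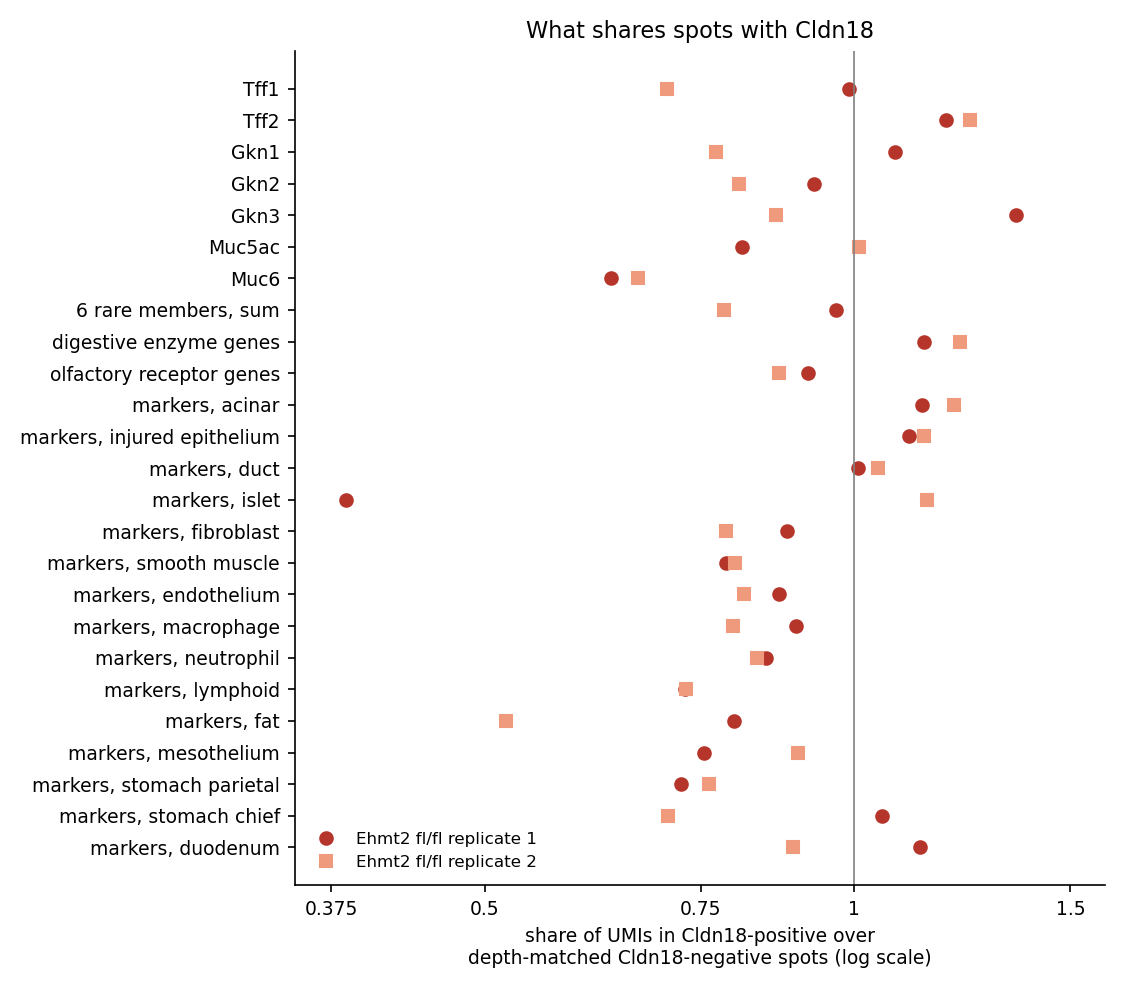
Share of a gene's or list's UMIs in Cldn18-positive spots over that in Cldn18-negative spots of like depth, 1 point for each Ehmt2 fl/fl section, with 1 meaning no difference. Tff2 (1.19 and 1.24), the acinar markers (1.14 and 1.21) and the injured epithelium list (1.11 and 1.14) lay above 1 in both sections, while stromal and immune lists lay below it.

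By cell type lists, Cldn18-positive spots held relatively more acinar UMIs and fewer UMIs of stromal and immune markers, but the olfactory receptor genes were lower there too (0.917 and 0.869). The ratios were 1.14 and 1.21 for the acinar markers and 1.11 and 1.14 for genes of injured pancreatic epithelium, but 1.01 and 1.05 for duct markers. Most UMIs of the injured epithelium list in these spots came from Clu, a secreted chaperone with ratios of 1.11 and 1.16. Krt18 (1.30 and 1.22), Krt19 (1.41 and 1.08), Krt8 (1.12 and 1.18) and Reg3a (1.23 and 1.21) were also above 1 in both sections. So were Reg3b, Cdkn1a and Sox4. The rest of the list, Cd44, Onecut2, Anxa2, Tm4sf4, Klf6 (0.993 and 0.738) and Lcn2 (0.948 and 1.04), were not above 1 in both sections. Stromal and immune lists gave 0.882 and 0.786 for fibroblasts, 0.869 and 0.813 for endothelium, 0.897 and 0.797 for macrophages, 0.848 and 0.834 for neutrophils and 0.728 and 0.730 for lymphoid markers. The markers of stomach parietal cells were at 0.723 and 0.762 and those of chief cells at 1.05 and 0.705, so neither was enriched in both sections. Islet markers differed between the sections, at 0.385 and 1.15.

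Over single genes, none of the 8208 with at least 20 UMIs in the positive spots of both sections had a ratio of 1.5 or more in both. Among the 10 genes most like Cldn18 by the lower of their ratios were Taf5l, Cd101, Ccdc62, Lta, Mob2, Slc25a39, Dusp19, Kctd8 and Kcmf1, with lower ratios of 1.36 to 1.45 that each rest on 20 to 46 UMIs. Tff2 stood at place 101, Gkn3 at 4358 and Tff1 at 7420, and the other members had too few UMIs to be placed. At the far end, 3 genes had a ratio of 0.5 or less in both sections.

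Sorting the spots of each section into 5 equal groups by their share of enzyme UMIs showed where the members lay along the exocrine tissue. From the lowest to the highest group Cldn18 went through 62.3, 134, 154, 180 and 219 CPM in Ehmt2 fl/fl replicate 1, while the enzyme share went from 5.54% to 37.5%. In replicate 2 it went from 59.96 to 198 CPM as the enzyme share went from 3.34% to 36.5%. The share of spots with a Cldn18 UMI went from 4.41% to 21.9% and from 4.14% to 24.4%, and per 1000000 UMIs of genes other than enzymes Cldn18 went from 66.0 to 351 and from 62.0 to 313. Cldn18 in Ehmt2 fl/fl was thus highest in the spots richest in enzymes, which were also the deepest, with medians of 1173 and 1407 UMIs against 680.5 and 623 in the lowest group.

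In Ehmt2+/+ Cldn18 had only 3 to 22 UMIs a group, and replicate 1 showed no clear order. It was at 1.87 CPM in the lowest group and 1.09 in the highest of replicate 1, on 7 and 13 UMIs, while its share of spots there was 0.566% and 1.05%. In replicate 2 it went through 20.6, 7.49, 3.63, 1.40 and 2.39 CPM, on 22, 10, 6, 3 and 6 UMIs. Its share of spots there was 1.07% in the lowest group and 0.292% in the highest. Cldn18 in replicate 2 was thus lower in enzyme-rich spots, though on few counts. It stood there at 0.979 times the olfactory receptor median, and the olfactory receptor genes fell likewise, from 15953 to 3021 CPM. Its order in replicate 2 was therefore that of the background and gives no location of Cldn18 to set against the Ehmt2 fl/fl sections.

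Tff2 followed the enzymes in the same direction in all 4 sections, from 961 to 1095 and from 661 to 1139 CPM in Ehmt2+/+ and from 113 to 448 and from 78.0 to 354 CPM in Ehmt2 fl/fl. The 6 rare genes summed ran the other way, from 117 to 53.3 and from 166 to 70.6 CPM in Ehmt2 fl/fl and from 135 to 24.3 CPM in Ehmt2+/+ replicate 2. The olfactory receptor genes did likewise, from 15586 to 6053 and from 22096 to 8953 CPM in Ehmt2 fl/fl and from 15953 to 3021 CPM in Ehmt2+/+ replicate 2. Cldn18 and Tff2 in the Ehmt2 fl/fl sections therefore shared the direction of the enzymes, and the rare gastric genes that of the background.

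**Figure D4:**
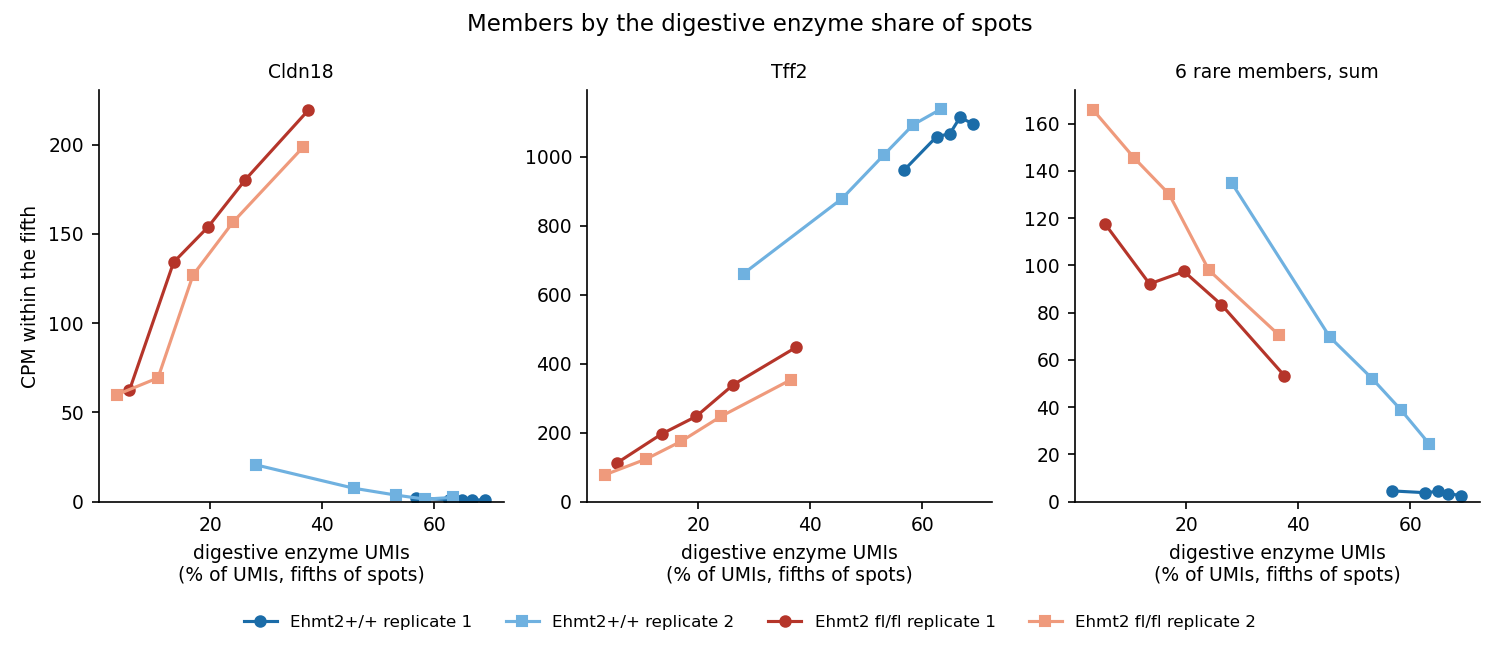
CPM (linear axis) of Cldn18, Tff2 and the sum of the other 6 genes in 5 equal groups of tissue spots ordered by their share of digestive enzyme UMIs, 1 line for each section. In the Ehmt2 fl/fl sections Cldn18 (62.3 to 219 and 59.96 to 198) and Tff2 (113 to 448 and 78.0 to 354) were higher in enzyme-rich spots and the other 6 genes lower.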

How the data were processed

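Sections of 4 mice were profiled with the CytAssist Visium assay. The authors counted UMIs with Space Ranger, 2.0.1 in the matrix headers, on mm10, and deposited raw UMI counts for each feature and spot, with nothing normalized. Of 32589 features, 304 marked as deprecated probes were left out. Tissue marks in the alignment files carry no barcodes, so spots over tissue were taken as those above the trough between the 2 main modes of log10(UMIs + 1) in each section (histogram bins of 0.05, Gaussian SD of 3 bins). Depth was 7000825 to 43803829 UMIs over tissue per section.

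The quasi-likelihood test of edgeR 4.0.16 (R 4.3.3) was run on counts summed per section, with TMM factors, filterByExpr at its minimum count of 10, and p-values of 20066 genes adjusted by Benjamini-Hochberg at 0.05. There were 2 sections a genotype as replicates and genotype as the only factor. The p-values rest on a spread between these sections that edgeR shares across genes, so they do not measure a gene's own spread alone. The common dispersion was 0.362. Enzyme genes were 37 of 38 listed. Spots were matched in 10 depth bins, thinned to 500 UMIs, and shares given with 95% Clopper-Pearson intervals in Python 3.11.15 with scipy 1.17.1. The fitting and spot steps were tested on simulated data. For the fits, the simulated sections had a lower dispersion than these and a shared composition apart from the genes set to change. That test therefore gives no power or error rate for these sections. Promoters are from RefSeq for GRCm38.p6.

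Alternatives were DESeq2 1.42.0, library sizes without TMM factors, upper-quartile factors, a fit without enzyme genes, a fit with no count filter, all spots holding any UMI, spots of 500 UMIs or more, each section left out in turn and, chosen after seeing the data, the slide as a block. Members and lists were chosen with earlier results of these data known. Named genes are the members, from each list every called gene and up to 4 genes of highest mean CPM, the 10 genes most like Cldn18 over spots, tested neighbours within 250 kb, Ehmt2 and sex-linked genes, of which the text gives a selection, plus Cldn10 and Tff3, chosen after their values were seen. Some results under this rule are left out of the text. The cell type lists (acinar, duct, injured epithelium, islet, fibroblast, smooth muscle, endothelium, macrophage, neutrophil, lymphoid, fat, blood, mesothelium, tuft, cell cycle, duodenum) had 0 genes called, with median log2 fold changes from -4.21 (acinar) to 1.42 (neutrophil).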

Additional observations from a re-analysis of the deposited data

How the results depend on the processing

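Genes called higher in Ehmt2 fl/fl numbered 11 in the main fit, 188 with library sizes alone and 3 with upper-quartile factors. Genes called lower numbered 8 in the main fit and 286 in DESeq2, the latter of only 4182 genes given an adjusted p. They numbered 0 with upper-quartile factors or the slide as a block (the latter chosen after seeing the data). Leaving out each section in turn gave 0 to 9395 genes higher and 0 to 7306 lower, with no call without Ehmt2 fl/fl replicate 2, where 17 genes had an unadjusted p under 0.05 in edgeR, and the highest counts without Ehmt2+/+ replicate 2. With library sizes alone, Cldn18 had a log2 fold change of 5.62 and Tff2 one of -2.02. DESeq2 gave -4.61 for Tff2 and no adjusted p for the 6 rare genes. Over the fits that each leave out 1 section, Tff2 ranged from -4.94 to -2.84, Tff1 from -0.069 to 1.05, Gkn3 from -0.13 to 1.65 and Muc5ac from -0.30 to 2.84, the last 3 reversed without Ehmt2+/+ replicate 1. The difference in the share of spots with Cldn18, 11.9 percentage points, was 6.67 after thinning, 8.85 after thinning by UMIs of genes other than enzymes, 6.87 with every spot with a UMI and 14.2 in spots with at least 500 UMIs. The ratio of the other members together in Cldn18-positive spots was 1.12 on average, with Tff2 alone at 1.22 and the 6 rare genes at 0.875. The ratio of these members together was 1.16 without matching, 1.17 matched on UMIs of genes other than enzymes and 1.01 with at least 2 Cldn18 UMIs. The causes of these changes were not tested. With 2 sections a genotype no exact test can go below 0.333, and the rare genes, at 10 to 196 UMIs a section, allow no statement on changes smaller than their errors.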
